A study of Rattus norvegicus with 18 samples.

Results

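Hypoxia-inducible factor 1 (HIF-1) and genes known to respond to it were followed in the cerebral cortex of rats with subarachnoid hemorrhage (SAH), the bleeding of a brain surface artery into the space around the brain. The 10 genes were taken by symbol: Hif1a, Egln3, Adm, Vegfa, Hk2, Pfkfb3, Ldha, Pdk1, Bnip3 and Ankrd37. Each symbol matched 1 of the 30735 genes in the deposited table, and all 10 genes passed the filter on low counts, which left 18444 genes for testing. One day after SAH, Adm, Pfkfb3, Hk2 and Vegfa were higher than in sham rats and Bnip3 was lower. The other 5 genes did not pass the test in that comparison, and edgeR called none of the 10 when SAH 7d was set against SAH 1d or against sham, where DESeq2 made 1 and 2 calls.

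RNA was sequenced from 18 Sprague Dawley rats aged 8 to 10 weeks, 6 in each of 3 groups and 1 library per rat. In the SAH 1d and SAH 7d groups a filament was pushed through a vessel wall at the base of the brain, and cortex was taken 1 and 7 days later. Sham rats went through the same operation up to the perforation, and the time at which their cortex was taken is not given in the sources used here. All groups therefore share anesthesia and neck surgery, and no group carried a drug or a genetic change. The study's methods describe whole cortex of the operated side, whereas the labels name bilateral cortex and mice. Rat gene identifiers are used throughout the table. The sex of the rats was not stated.

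HIF-1 is a pair of proteins, an alpha subunit made from Hif1a and a beta subunit made from Arnt or its relative Arnt2. When oxygen is ample, prolyl hydroxylases of the Egln family mark the alpha subunit, the Vhl protein binds it and it is degraded, so the alpha subunit is controlled largely as a protein. When oxygen is short the pair enters the nucleus, binds short DNA elements with the core ACGTG or GCGTG and raises genes for glucose breakdown, vessel growth and the sparing of mitochondria. RNA counts show the transcripts of these genes and not the amount of HIF-1 protein.

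Promoters are shown because these core letters are the sequence through which HIF-1 is known to act. All 10 genes matched a RefSeq promoter of the GRCr8 rat assembly, running from 250 bases before to 50 bases after the start of the gene, and Vegfa has 2 such starts. The letters ACGTG or GCGTG on either strand were present in 6 of the 10 genes and in 41.6% of the 33469 promoters in the same table. ACGTG alone is held by 19.3% of those promoters and GCGTG alone by 29.7%. The 5 promoters printed are those of the 3 genes with the largest increases at SAH 1d (Adm, Hk2 and Pfkfb3), of the gene that fell (Bnip3) and of Ldha, which did not pass the test. Capitals mark every match on either strand, and adjoining matches run together. CACGTG reads as ACGTG on both strands and counts once for each.
Adm, chr1:174179950-174180249, plus strand: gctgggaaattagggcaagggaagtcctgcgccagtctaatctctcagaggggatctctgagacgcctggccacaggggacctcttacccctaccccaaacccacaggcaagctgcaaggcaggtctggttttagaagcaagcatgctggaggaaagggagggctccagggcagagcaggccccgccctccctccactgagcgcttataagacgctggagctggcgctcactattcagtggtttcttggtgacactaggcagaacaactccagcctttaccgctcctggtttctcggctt
Hk2, chr4:116841226-116841525, minus strand: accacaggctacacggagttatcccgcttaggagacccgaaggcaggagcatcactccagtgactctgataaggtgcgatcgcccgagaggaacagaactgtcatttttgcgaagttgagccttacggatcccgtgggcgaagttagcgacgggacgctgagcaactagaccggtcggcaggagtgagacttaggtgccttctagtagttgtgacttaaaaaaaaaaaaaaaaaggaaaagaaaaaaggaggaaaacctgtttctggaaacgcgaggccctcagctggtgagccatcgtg
Pfkfb3, chr17:71944683-71944982, plus strand: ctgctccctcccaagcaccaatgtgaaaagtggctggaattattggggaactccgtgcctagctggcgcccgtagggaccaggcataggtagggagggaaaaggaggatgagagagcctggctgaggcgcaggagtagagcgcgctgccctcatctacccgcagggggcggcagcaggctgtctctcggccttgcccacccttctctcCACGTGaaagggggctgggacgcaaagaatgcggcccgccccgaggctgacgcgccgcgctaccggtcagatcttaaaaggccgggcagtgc
Bnip3, chr1:203154913-203155212, minus strand: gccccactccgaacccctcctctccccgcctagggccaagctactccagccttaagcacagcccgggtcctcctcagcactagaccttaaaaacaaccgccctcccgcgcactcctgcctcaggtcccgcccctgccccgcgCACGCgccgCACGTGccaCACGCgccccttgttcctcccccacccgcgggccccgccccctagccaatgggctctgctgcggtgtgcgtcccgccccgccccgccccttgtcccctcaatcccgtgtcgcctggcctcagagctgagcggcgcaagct
Ldha, chr1:106507842-106508141, plus strand: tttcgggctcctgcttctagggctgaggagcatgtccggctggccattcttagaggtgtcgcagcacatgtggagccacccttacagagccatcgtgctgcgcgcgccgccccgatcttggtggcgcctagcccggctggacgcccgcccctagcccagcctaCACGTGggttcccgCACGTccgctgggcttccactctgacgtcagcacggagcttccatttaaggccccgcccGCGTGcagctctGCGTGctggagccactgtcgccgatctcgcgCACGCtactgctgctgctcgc

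Adm and Hk2 held no match in these windows, nor did Egln3 or either Vegfa start. Pfkfb3 held 1 marked stretch, Bnip3 held 3 and Ldha held 5. Of the promoters not printed, Hif1a held 2 stretches, Pdk1 held 4 and Ankrd37 held 4. Among the genes that were higher, the letters were thus found in Pfkfb3 but not in Adm, Hk2 or Vegfa. They were also found in Bnip3, which was lower, and in Hif1a, Pdk1, Ankrd37 and Ldha, which did not pass. A match or its absence in 300 bases says nothing of binding.

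Total counts were 27270026 to 38271014 per library. Library SAH 1d-3 and library SAH 7d-5 stand apart from the other libraries of their groups. SAH 1d-3 had the highest value of its group in 6 of the 10 genes and the lowest in 2, and SAH 7d-5 had the highest in 4 and the lowest in 4. The levels below are counts per 1e+06 counts (CPM) on library sizes scaled by the TMM method, and fold changes are from edgeR's quasi-likelihood test with p-values adjusted over all 18444 genes tested. A gene is called at an adjusted p under 0.05.

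At SAH 1d, 4 of the 10 genes were called higher than in sham and 1 was called lower. Over all genes tested, 14.9% were called higher, 10.5% lower and 25.4% in either direction. The genes called higher with at least a 2-fold change were 3 of the 10, against 5.57% of all genes, and 1.06% of all genes were called lower by as much. Without SAH 1d-3 only Adm was called higher by at least 2-fold. In CPM, the libraries of both groups did not overlap for 2 genes that were higher (Adm and Pfkfb3), against 7.89% of all genes, and for 1 that was lower (Bnip3), against 5.41%. The genes without overlap depended on the scale. In FPKM, the authors' values scaled to transcript length, the Bnip3 groups overlapped, and those of Adm, Pfkfb3, Vegfa and Hk2 did not. The median log2 fold change was 0.27 for the 10 genes, 0.14 for them without SAH 1d-3, and 0.0086 for all genes tested.

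**Figure D1:**
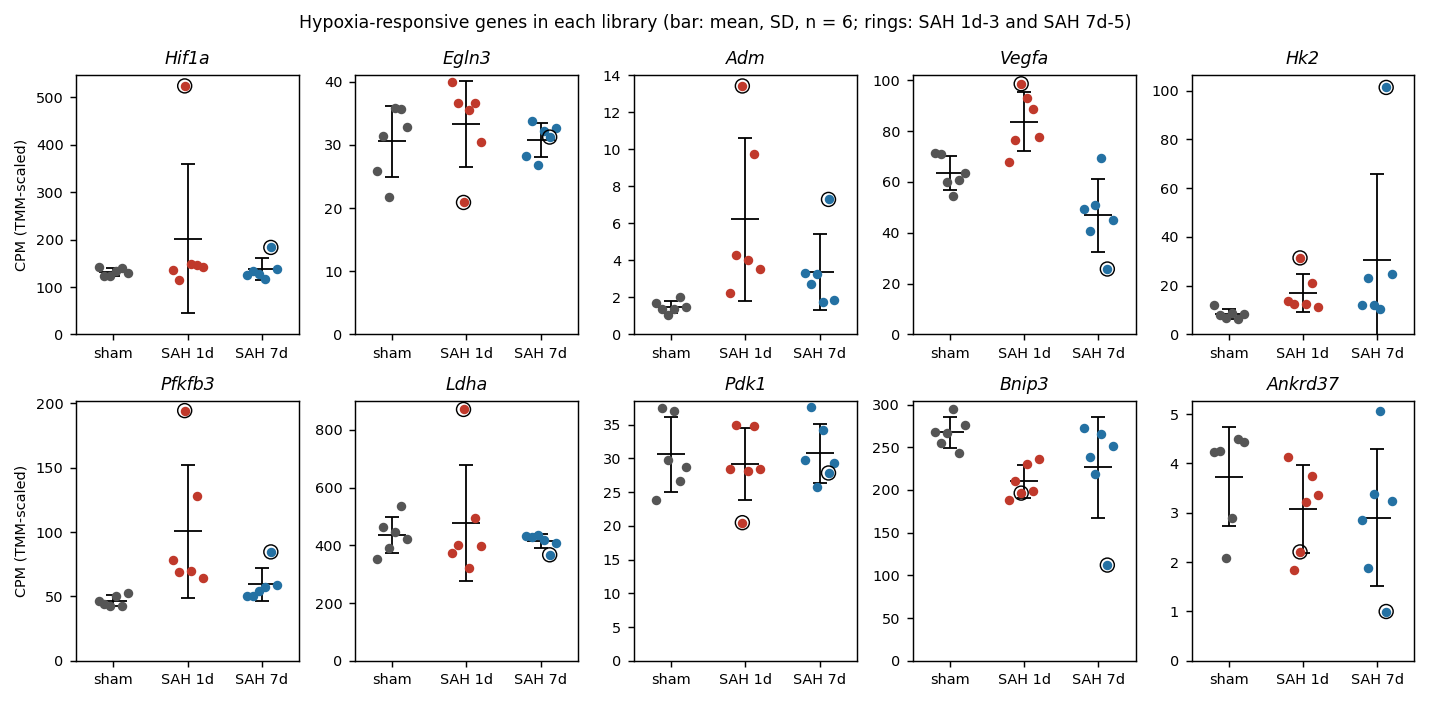
CPM of each gene (y axis, each panel from 0 on its own scale) in the 6 libraries of each group (x axis). Points are libraries, bars are the mean and SD, and rings mark the 2 libraries that stand apart; the lower SD bar of Hk2 at SAH 7d runs past 0 and is cut there. All 6 SAH 1d points of Adm and Pfkfb3 lie above the sham points, all 6 of Bnip3 lie below them, and single ringed points set the highest values of Hif1a and Ldha at SAH 1d and of Hk2 at SAH 7d.

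Hif1a encodes the oxygen-regulated subunit itself. Its level was 123 to 142 CPM in sham, with a median of 132. At SAH 1d it ran from 116 to 524 CPM with a median of 144, and at SAH 7d from 116 to 184 CPM with a median of 131. The value of 524 CPM belongs to SAH 1d-3, and the other 5 SAH 1d libraries lay at 116, 136, 142, 147 and 149 CPM. The log2 fold change at SAH 1d was 0.62 ± 0.33 (SE), with an adjusted p of 0.180, and without SAH 1d-3 it was 0.06.

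Egln3 encodes a prolyl hydroxylase that acts on the alpha subunit and is itself raised by HIF-1 in many cells. Sham libraries held 21.8 to 35.9 CPM of Egln3 (median 32.1). The SAH 1d range was 20.9 to 39.9 CPM (median 36.1) and the SAH 7d range 26.7 to 33.7 CPM (median 31.7). The ranges overlapped throughout, and the lowest SAH 1d value was that of SAH 1d-3. At SAH 1d the log2 fold change was 0.12 ± 0.16 (SE), with an adjusted p of 0.597.

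Adm and Vegfa encode secreted peptides that act on vessels: adrenomedullin widens them and vascular endothelial growth factor A drives their growth and leakiness. Adm had the largest fold change of the 10 genes at SAH 1d. Its sham level was low, at 1.06 to 2.02 CPM with a median of 1.43. At SAH 1d it was 2.23 to 13.4 CPM with a median of 4.15, so that the lowest SAH 1d library lay above the highest sham library. SAH 1d-3 held 13.4 CPM, SAH 1d-5 held 9.75 CPM and the other 4 held 2.23 to 4.26 CPM. The rise was 4.14-fold, a log2 fold change of 2.05 ± 0.40 (SE) with an adjusted p of 0.00337, and all 6 libraries were above the sham mean. It was 1.66 on the log2 scale without SAH 1d-3. Without the 2 highest SAH 1d libraries, a choice made after seeing the values, it was 1.22, with an adjusted p of 0.00212.

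Vegfa started from a higher sham level, 54.6 to 71.2 CPM with a median of 62.1. It was 67.9 to 98.6 CPM at SAH 1d (median 83.0), with 5 of the 6 libraries above every sham library. The increase was 1.32-fold, or 0.40 ± 0.10 (SE) on the log2 scale, with an adjusted p of 0.0126. At SAH 7d the range was 25.7 to 69.5 CPM, with a median of 47.2, and 5 of the 6 libraries were below every sham library. Vegfa was therefore the gene of the set whose SAH 1d libraries lay mostly above and whose SAH 7d libraries lay mostly below the sham range, although edgeR did not call the SAH 7d differences.

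Hk2, Pfkfb3 and Ldha act at successive points of glucose breakdown. Hexokinase 2 traps glucose in the cell, the Pfkfb3 enzyme makes the sugar phosphate that speeds up phosphofructokinase, and lactate dehydrogenase A turns pyruvate into lactate. Hk2 and Pfkfb3 rose at SAH 1d by about the same factor, 2.05-fold and 2.17-fold, and Ldha did not pass the test.

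Hk2 was at 6.35 to 11.9 CPM in sham, with a median of 8.14. Its SAH 1d level was 11.4 to 31.4 CPM with a median of 13.1, and 5 of the 6 libraries were above every sham library. The log2 fold change was 1.04 ± 0.26 (SE), with an adjusted p of 0.0116, and it was 0.77 without SAH 1d-3. At SAH 7d the level spread from 10.4 to 101 CPM around a median of 17.6. SAH 7d-5 held 101 CPM, 8.26 times the median of the other 5 libraries of its group.

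Pfkfb3 was at 42.6 to 52.8 CPM in sham (median 45.6). At SAH 1d it was at 64.5 to 194 CPM (median 74.1), and every library was above every sham library. SAH 1d-3 at 194 CPM and SAH 1d-5 at 128 CPM were the highest, as they were for Adm and Hk2, and the other 4 lay between 64.5 and 78.7 CPM. The log2 fold change was 1.12 ± 0.25 (SE), with an adjusted p of 0.00711, and it was 0.81 without SAH 1d-3. Without both of those libraries it was 0.60, with an adjusted p of 0.000318. By SAH 7d the level was 50.3 to 84.6 CPM with a median of 55.6, and 4 of the 6 libraries were still above every sham library.

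Ldha was the most abundant of the 10 genes per length of transcript. Sham libraries held 353 to 537 CPM with a median of 434, and SAH 1d libraries held 323 to 871 CPM with a median of 400. The highest value, 871 CPM, was that of SAH 1d-3, 2.19 times the median of the other 5. The log2 fold change of 0.13 ± 0.21 (SE) was not called (adjusted p 0.678) and became -0.13 without that library. At SAH 7d the range was narrow, 367 to 435 CPM with a median of 423. Copies of Ldha without function exist in rodent genomes, and how reads that match several copies were counted is not given in the sources used here.

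Pdk1 and Bnip3 act on mitochondria. Pyruvate dehydrogenase kinase 1 keeps pyruvate out of the citrate cycle, and Bnip3 is an outer membrane protein that marks mitochondria for removal by autophagy. Bnip3 fell at SAH 1d and Pdk1 did not pass the test. Bnip3 was at 243 to 295 CPM in sham (median 268) and at 188 to 236 CPM at SAH 1d (median 205), with all 6 SAH 1d libraries below all 6 sham libraries. SAH 1d-3, at 196 CPM, did not stand out. The fold change was 0.786, or -0.35 ± 0.07 (SE) on the log2 scale, with an adjusted p of 0.00559. At SAH 7d the level was 112 to 272 CPM with a median of 245, and the lowest value was that of SAH 7d-5.

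Pdk1 held 23.8 to 37.5 CPM in sham (median 29.2), 20.5 to 34.9 CPM at SAH 1d (median 28.4) and 25.8 to 37.7 CPM at SAH 7d (median 29.5). The 3 ranges overlapped, and the log2 fold change at SAH 1d was -0.07 ± 0.14 (SE), with an adjusted p of 0.764. Ankrd37, a small ankyrin repeat protein raised by HIF-1 in many cells, was at 2.08 to 4.50 CPM in sham (median 4.24), 1.83 to 4.13 CPM at SAH 1d (median 3.29) and 0.998 to 5.07 CPM at SAH 7d (median 3.04). Its log2 fold change at SAH 1d was -0.28 ± 0.24 (SE), with an adjusted p of 0.421. SAH 7d-5 held the lowest Ankrd37 value of all 18 libraries.

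The 5 calls at SAH 1d held in each of the 12 fits that left out 1 library. When all 18 libraries shared 1 estimate of the spread, Adm and Pfkfb3 were called and the other 3 were not, with adjusted p-values of 0.108 for Vegfa, 0.124 for Bnip3 and 0.145 for Hk2.

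SAH 7d was next compared with SAH 1d, to see whether the genes came back. None of the 10 was called by edgeR, and 2 had an unadjusted p under 0.05. Over all genes 0.282% were called higher, 1.08% lower and 1.37% in either direction, 0.152% and 0.542% of them by at least 2-fold up and down. No gene of the set had groups that did not overlap, against 0.938% of all genes higher and 2.11% lower. Vegfa came closest, at -0.84 ± 0.19 (SE) on the log2 scale with an adjusted p of 0.0510, and 5 of the 6 SAH 7d libraries were below every SAH 1d library. It was called by the DESeq2 Wald test (adjusted p 0.00292) and in 10 of 25 settings in all, and it was -0.99 without SAH 7d-4. Pfkfb3 was at -0.77 ± 0.28 (SE), with an adjusted p of 0.210 and 5 of 6 libraries below every SAH 1d library, and was called in 2 of the 25 settings. Without the 2 libraries that stand apart both genes were called, with adjusted p-values of 0.00837 for Vegfa and 0.0321 for Pfkfb3. That fit also called far more of the 18444 genes, 1130 higher and 1382 lower, against 52 and 200 with all libraries.

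Among the others, Adm was at -0.88 ± 0.48 (SE), with an adjusted p of 0.424, and -0.05 without the 2 highest SAH 1d libraries. Hif1a was at -0.56 ± 0.35 (SE), with an adjusted p of 0.491. Hk2 was at 0.85 ± 0.56 (SE), with an adjusted p of 0.512, and -0.06 without SAH 7d-5. The remaining 5 genes were between -0.21 (Ldha) and 0.10 (Bnip3). The SAH 1d libraries enter this comparison and that with sham, so both share them.

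In the comparison of SAH 7d with sham, edgeR called none of the 10 genes and 0% of all genes, whether higher, lower or by 2-fold. An unadjusted p under 0.05 was found for 4 of the 10 (Adm, Hk2, Pfkfb3 and Vegfa). Groups without overlap made up 0.797% of all genes higher and 0.428% lower, and none of the 10. Adm was at 1.17 ± 0.33 (SE) and Hk2 at 1.88 ± 0.53 (SE), each with an adjusted p of 0.214. Each was above the sham mean in 6 of 6 libraries. The DESeq2 Wald test called these 2 genes, with adjusted p-values of 0.0395 for Adm and 0.0151 for Hk2, and no other alternative called any of the 10. Over the 17916 genes it tested, DESeq2 called 406 higher and 53 lower. Without SAH 7d-5 the values were 0.79 for Adm and 0.99 for Hk2. Pfkfb3 was at 0.35 ± 0.13 (SE), with an adjusted p of 0.258, and Vegfa at -0.44 ± 0.18 (SE), with an adjusted p of 0.290. The other 6 genes were between -0.36 (Ankrd37) and 0.06 (Hif1a).

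**Figure D2:**
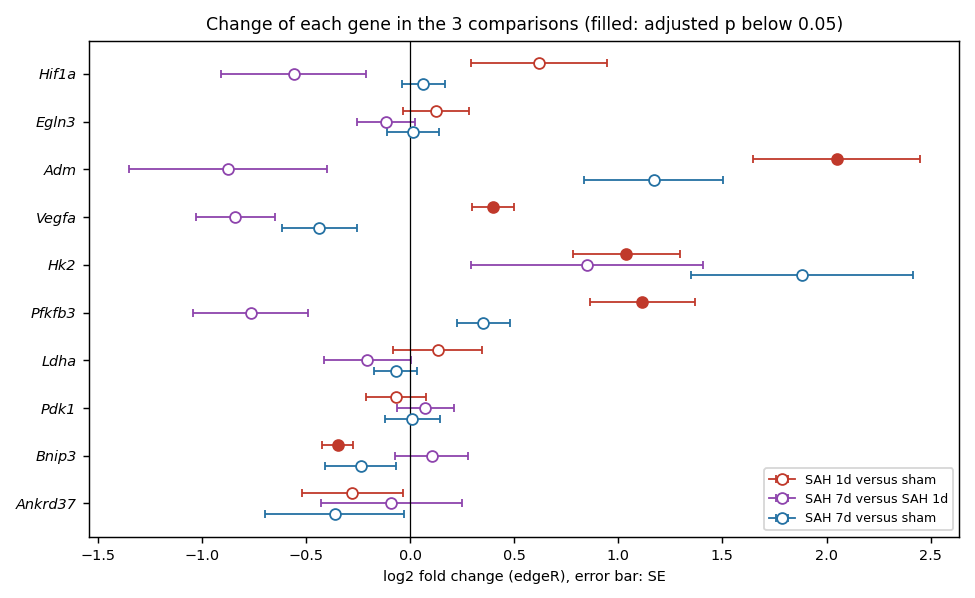
The log2 fold change of each of the 10 genes (y axis) in the 3 comparisons (x axis, edgeR; bars are the SE, from fits of 6 against 6 libraries). Filled points have an adjusted p under 0.05: Adm, Vegfa, Hk2 and Pfkfb3 to the right of 0 and Bnip3 to the left, all in SAH 1d versus sham.

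Levels of different genes were compared as FPKM, which the authors scaled to transcript length. In sham the order was Ldha at 254 ± 45.4 FPKM (SD, n = 6), Bnip3 at 154 ± 9.78, Hif1a at 30.9 ± 1.99, Pdk1 at 18.1 ± 3.63, Vegfa at 16.9 ± 1.65, Pfkfb3 at 10.3 ± 0.902, Egln3 at 10.1 ± 2.10, Ankrd37 at 3.96 ± 1.09, Hk2 at 1.42 ± 0.300 and Adm at 1.002 ± 0.236. The neighbours Pdk1 and Vegfa, Pfkfb3 and Egln3, and Hk2 and Adm overlapped between libraries, and the other neighbours did not. At SAH 1d Pfkfb3 stood at 23.8 ± 11.7 FPKM beside Vegfa at 24.1 ± 2.93, and both means were above that of Pdk1 at 18.6 ± 3.55, although the 3 ranges overlapped. By its mean Adm moved from the last place to the eighth, at 4.45 ± 3.07 FPKM. Its range overlapped that of Ankrd37, whose median of 3.79 FPKM was above the 3.03 FPKM of Adm. Despite their rises, Adm and Hk2 stayed far below Ldha and Bnip3 per length.

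The remaining parts of the oxygen sensor were taken from a list of 9 genes, all tested. Arnt, Egln1 and Vhl were called higher at SAH 1d, Arnt2 was called lower, and 5 did not pass, with none past 2-fold. Vhl, which recruits the alpha subunit for degradation, went from 63.5 to 87.8 CPM, a log2 fold change of 0.47 ± 0.15 (SE) with an adjusted p of 0.0310. Arnt was at 0.28 ± 0.09 (SE), with an adjusted p of 0.0421, and Egln1 at 0.26 ± 0.09 (SE), with an adjusted p of 0.0428. Arnt2, the beta subunit that is common in neurons, fell from 310.5 to 213 CPM, by -0.54 ± 0.09 (SE) on the log2 scale with an adjusted p of 0.00121. Epas1, the other oxygen-regulated alpha subunit, was at 0.03 ± 0.14 (SE), with an adjusted p of 0.906. The 3 increases lay close to the threshold: the 4 calls became 1 without sham-2, sham-4, sham-5 or sham-6, and 2 without sham-3, SAH 1d-2, SAH 1d-3, SAH 1d-4 or SAH 1d-5. The list's share was 33.3% higher and 11.1% lower, against 14.9% and 10.5% of all genes. In each of the other 2 comparisons edgeR called no gene of this list, with 2 at an unadjusted p under 0.05. For SAH 7d versus SAH 1d, DESeq2 and limma voom each called 2, and edgeR called 3 without SAH 7d-5. These settings also called more of all genes than the 52 higher and 200 lower of the main fit. DESeq2 called 367 higher and 645 lower, limma voom 1175 and 1543, and edgeR without SAH 7d-5 587 and 958.

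Other known targets of HIF-1 came from a list of 47 genes, of which 46 had a row and 44 were tested. At SAH 1d 10 were called higher, 4 lower and 30 did not pass, or 22.7% higher and 9.09% lower, against 14.9% and 10.5% of all genes. The median log2 fold change was 0.07 over the list. The split moved with the processing: 11 were higher and 7 lower without SAH 1d-3, 12 and 1 on log2 FPKM, 14 and 11 with limma voom, and 9 and 10 without the 2 highest SAH 1d libraries. Calls over all genes, 2748 higher and 1936 lower in the main fit, moved too. They were 2846 and 2406, 3703 and 983 on log2(FPKM + 1), 3486 and 3016, and 2648 and 2347 in the same order.

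Among 16 tested genes for glucose and pH, 2 were called higher and 3 lower. That is 12.5% and 18.8%, against 14.9% and 10.5% of all genes. The transporters were higher, with Slc2a1, which carries glucose, at 0.71 ± 0.19 (SE) and Slc16a3, which exports lactate, at 2.39 ± 0.46 (SE). The enzymes Tpi1 (-0.30 ± 0.09), Gapdh (-0.25 ± 0.08) and Gbe1 (-0.29 ± 0.08) were lower. Gapdh was called in 8 of 25 settings, Tpi1 in 15 and Gbe1 in 22, always with the sign given. Without SAH 1d-3, Slc16a3 was at 1.65 with an adjusted p of 0.000126, and Gapdh at -0.24 with an adjusted p of 0.0506. Aldoa, Pkm and Pgam1, the 3 most abundant of the listed genes that did not pass, were at -0.24 (adjusted p 0.0830), -0.04 (adjusted p 0.826) and -0.26 (adjusted p 0.103). Higher Hk2 and Pfkfb3 thus stood beside later enzymes of the same pathway that were lower (Tpi1 and Gapdh) or did not pass (Aldoa, Pkm and Pgam1). The lower calls of Tpi1 and Gapdh depended on the setting.

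Of the 6 genes for mitochondria, Bnip3l was lower and none higher, or 16.7% lower against 10.5% of all genes. Bnip3l is the closest relative of Bnip3 and has the same role, and its mean went from 221 to 162 CPM, -0.44 ± 0.06 (SE) on the log2 scale with an adjusted p of 0.000505. Of the 6 matrix genes, 3 were higher and none lower, or 50% higher against 14.9% of all genes. P4ha1 and P4ha2, subunits of the collagen prolyl hydroxylase, were at 0.69 ± 0.09 (SE) with an adjusted p of 0.000197 and at 0.90 ± 0.08 (SE) with an adjusted p of 2.31e-05. Plod1, which acts on collagen lysines, was at 0.45 ± 0.12 (SE).

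Of the 7 genes for vessels and iron that were tested, 3 were higher and none lower, or 42.9% higher against 14.9% of all genes. Hmox1, the enzyme that breaks down heme, went from 4.45 to 7.26 CPM across sham libraries to 57.2 to 379.8 CPM at SAH 1d, 4.48 ± 0.47 (SE) on the log2 scale with an adjusted p of 6.48e-05. Angptl4 was at 2.16 ± 0.36 (SE), with an adjusted p of 0.00148, and Nos2 at 4.34 ± 1.22 (SE), with an adjusted p of 0.0208. Without SAH 1d-3, Hmox1 was at 3.79 with an adjusted p of 1.26e-07, while Nos2 was at 1.43 and not called (adjusted p 0.0633). Of the 9 genes for stress and transcription, Kdm3a (0.29 ± 0.08) and Stc2 were higher, or 22.2% against 14.9% of all genes. Stc2, a secreted glycoprotein, was at 0.566 to 1.88 CPM in sham and 4.09 to 8.81 CPM at SAH 1d, 2.63 ± 0.28 (SE) on the log2 scale with an adjusted p of 6.81e-05. At SAH 7d it was at 0.759 to 1.23 CPM, -2.83 ± 0.23 (SE) against SAH 1d with an adjusted p of 0.000134. Bnip3l was the other gene of this list called between the time points, at 0.34 ± 0.08 (SE) with an adjusted p of 0.0484. These 2 calls became 6 without SAH 7d-5 and 1 without any other single library. Over all genes, calls went from 52 higher and 200 lower to 587 and 958 without SAH 7d-5. Stc2 and Bnip3l had thus both moved back by SAH 7d, and no gene of the list was called between SAH 7d and sham by edgeR, with 10 at an unadjusted p under 0.05.

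**Figure D3:**
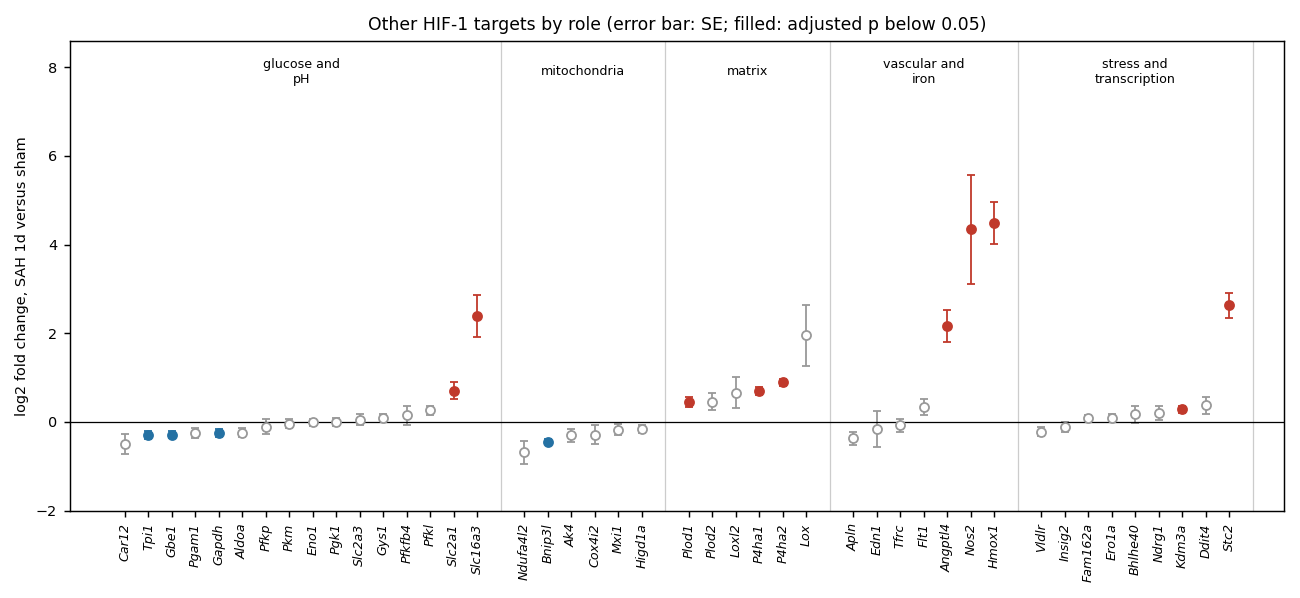
The log2 fold change of the 44 tested genes of the target list at SAH 1d against sham (y axis; bars are the SE, 6 against 6 libraries), grouped by role and ordered by value within a role (x axis). Filled points have an adjusted p under 0.05, 10 above 0 and 4 below 0; the 3 lower glucose genes and Bnip3l lie in the 2 left panels and the matrix panel holds 3 filled points above 0.

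Several of the 10 genes have relatives with the same enzyme activity, so shares within a family were taken as a further measure, the FPKM of the gene as a percent of the sum over its family in the same library. Hk2 made up 1.06% to 2.54% of Hk1, Hk2 and Hk3 in sham (mean 1.59% ± 0.502, SD, n = 6) and 2.63% to 5.74% at SAH 1d (3.48% ± 1.24, SD, n = 6). All 6 SAH 1d libraries were above all sham libraries, with an exact two-sided permutation p of 0.00216, the smallest that 6 against 6 can give, and 0.0260 after adjustment over 12 tests. Hk1, the main brain hexokinase, was at 260 CPM in sham and 227 CPM at SAH 1d, with an adjusted p of 0.108. Hk3, known from leukocytes, was counted in 1 of 6 sham libraries, for a mean of 0.0126 CPM, and was at 1.44 CPM at SAH 1d (adjusted p 0.000662). Without the 2 libraries that stand apart the difference in the Hk2 share at SAH 1d was 1.44 percentage points, against 1.89 with them, and its adjusted p was 0.0519. The adjusted p was also 0.0519 without any other single library but sham-1, whose removal left it at 0.0260. In each of these fits the groups did not overlap, so the exact p was the smallest that the remaining splits allow. Fewer splits make that smallest p larger, so the lost call says nothing about any single library. Without sham-1 the Hk2 shares of SAH 7d and sham did not overlap either, which makes the adjustment over 12 tests milder. At SAH 7d the Hk2 share ran from 1.77% to 20.2%, the highest in SAH 7d-5, and its difference from sham had an exact p of 0.0260 (adjusted 0.104). That difference was 4.32 percentage points, it was 1.47 without SAH 7d-5 (adjusted p 0.156), and without sham-1 it was 4.52 and was called (adjusted p 0.0260).

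Ldha made up 34.6% to 42.8% of Ldha and Ldhb in sham (37.7% ± 3.04, SD, n = 6) and 38.3% to 74.8% at SAH 1d (47.9% ± 13.5, SD, n = 6). The exact p was 0.0216 and the adjusted p 0.104, and the highest share was that of SAH 1d-3. The groups differed by 10.2 percentage points, and by 4.82 without that library (adjusted p 0.173). Ldhb, the form that favours pyruvate, was the part that was called: it went from 601 to 415 CPM, -0.53 ± 0.14 (SE) on the log2 scale with an adjusted p of 0.0151. Pdk1 among Pdk1 to Pdk4 (18.5% in sham and 19.6% at SAH 1d) and Egln3 among Egln1 to Egln3 (11.8% and 12.1%) had adjusted p-values of 0.823 and 0.926. Of 15 tested relatives of the 10 genes in all, Hk3 and Egln1 were called higher at SAH 1d and Ldhb and Bnip3l lower. That is 13.3% higher and 13.3% lower, against 14.9% and 10.5% of all genes.

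**Figure D4:**
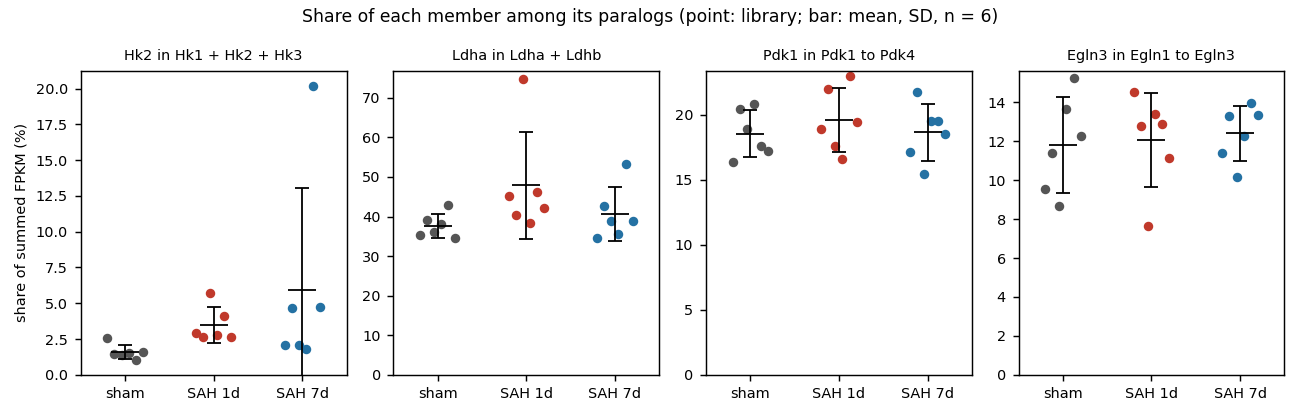
The share of Hk2, Ldha, Pdk1 and Egln3 in the summed FPKM of its family (y axis, percent, each panel from 0) in the 6 libraries of each group (x axis); bars are the mean and SD, and the lower bar of Hk2 at SAH 7d is cut at 0. The 6 SAH 1d points of Hk2 lie above the sham points, and single libraries reach 74.8% for Ldha at SAH 1d and 20.2% for Hk2 at SAH 7d.

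The libraries of a group differed from each other in these genes. SAH 1d-3 held 3.70 times the median of the other 5 SAH 1d libraries in Hif1a, 3.32 times in Adm, 2.80 times in Pfkfb3, 2.52 times in Hk2 and 2.19 times in Ldha. In the same library Egln3 was at 0.570 times, Ankrd37 at 0.658 times and Pdk1 at 0.719 times that median. SAH 1d-5 was also high in Adm (2.41 times), Pfkfb3 (1.84 times) and Hk2 (1.71 times) but not in Hif1a (1.04 times). SAH 7d-5 held 8.26 times the median of the other SAH 7d libraries in Hk2 and 2.70 times in Adm, with Ankrd37 at 0.309 times, Bnip3 at 0.446 times and Vegfa at 0.523 times. Vegfa was thus above the rest of its group in SAH 1d-3 and below it in SAH 7d-5, while Hk2 and Adm were above it in both.

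**Figure D5:**
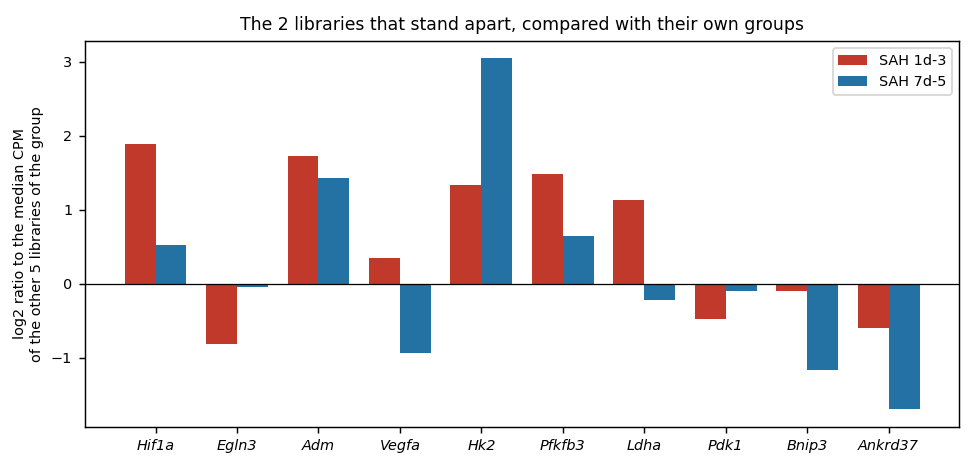
The log2 ratio of SAH 1d-3 and of SAH 7d-5 to the median CPM of the other 5 libraries of the same group (y axis; 0 means no difference) for each of the 10 genes (x axis). SAH 1d-3 is highest in Hif1a, at 1.89, and SAH 7d-5 in Hk2, at 3.05; both are above 0 in Hif1a, Adm, Hk2 and Pfkfb3 and below 0 in Egln3, Pdk1, Bnip3 and Ankrd37.

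Markers of cell types moved with the groups and with these libraries. In bulk tissue, fewer cells of a type and less RNA per cell cannot be told apart. For comparison, 14.9% of all genes were called higher and 10.5% lower at SAH 1d. All 6 neuron markers were called lower at SAH 1d, with a median log2 fold change of -0.57, and their summed level was 2127 to 3863 FPKM in sham, 2030 to 2393 at SAH 1d and 871 to 3554 at SAH 7d, the lowest in SAH 7d-5. Neuron markers were present in every library. Among endothelial markers 3 of 5 were higher (sum 24.9 to 36.6 FPKM in sham, 45.1 to 90.6 at SAH 1d, 29.4 to 54.5 at SAH 7d), and among macrophage markers 4 of 5 (35.4 to 56.8, 62.5 to 405 and 62.1 to 7072). Of the neutrophil markers, 2 of the 3 tested were higher (0.612 to 4.06, 3.18 to 82.7 and 1.15 to 75.5). SAH 1d-3 had the highest endothelial, macrophage and neutrophil sums of its group, and SAH 7d-5 those of its own. In SAH 1d-5 the macrophage sum was 62.5 FPKM, the lowest of its group, and the neutrophil sum 4.28 FPKM.

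For microglia 1 of 6 markers was lower and none higher at SAH 1d (133.8 to 211 FPKM in sham, 164 to 195 at SAH 1d and 156 to 1218 at SAH 7d, the highest in SAH 7d-5). For astrocytes 1 of 6 was higher (Gfap) and 1 lower (Aldh1l1), with sums of 1208 to 1858, 2175 to 2673 and 1562 to 2790. The median log2 fold change of the 6 at SAH 1d was -0.14, so the higher sum is not a rise of the whole list. None of 5 oligodendrocyte markers was called (3138 to 6582, 4841 to 6822 and 3722 to 6109), nor of 5 mural cell markers (59.3 to 98.9, 60.1 to 68.8 and 66.5 to 107.0), nor of 4 red cell markers (15.5 to 142, 73.1 to 249.9 and 1.13 to 87.5). SAH 1d-3 had the lowest mural cell sum and the highest red cell sum of its group. SAH 7d-5 had the highest mural cell sum and the lowest red cell sum of its own. No marker with a row was at 0 in all libraries of a group. The part of these cell types in the values of the 10 genes was not tested. Adm, Pfkfb3, Hk2, Vegfa and Bnip3 were called with the same sign without SAH 1d-3. The endothelial sums of all SAH 1d libraries, from 45.1 FPKM up, lay above the 36.6 FPKM of the highest sham library. Leaving out SAH 1d-3 therefore does not set cell types aside.

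The genes whose pattern over the 18 libraries was most like that of Adm and of Bnip3, the genes with the smallest adjusted p among those higher and lower, were looked for among 14103 genes by the mean absolute difference of standardized log2 CPM. For Adm they were Cebpb (0.201), Lrrfip2 (0.222) and Stat3 (0.251). Cebpb and Stat3 encode transcription factors of the acute inflammatory response. For Bnip3 they were Uqcrc2 (0.265), a subunit of respiratory complex III, Arl2bp (0.273) and Zdhhc2 (0.297). The values are in units of SD, and these likenesses are descriptions over libraries that share their groups.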

How the data were processed

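RNA from the cerebral cortex of 18 rats, 6 per group, was analysed from a table of counts and FPKM values. The authors had reads trimmed with fastp and aligned with HISAT2, as named in the submitters' processing notes, and the counting program is not given in the sources used here. The study's methods name the rat genome Rnor_6.0, whereas the notes name mm9, a mouse build; the identifiers are rat ones. Counts were deposited as whole numbers, not normalized. FPKM values, as deposited by the authors, are scaled to transcript length and to mapped reads. Replicates were not pooled. The notes also name DESeq2 1.16.1 for the authors' own comparisons, which were not used. Libraries were grouped by the descriptions deposited with them, which equal the column names; SAH titles carry other codes. Groups do not differ in an extraction or sequencing batch that the labels name.

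Counts were tested with edgeR 4.0.16 in R 4.3.3: filterByExpr on all 18 libraries, TMM, and the two-sided quasi-likelihood F test on the 12 libraries of each comparison, with Benjamini-Hochberg adjustment over 18444 genes. The SE is the log2 fold change divided by the square root of F. The precision of each value is the spread between the 6 rats, with total counts of 27270026 to 38271014. Family shares were compared by an exact permutation test over 924 splits, adjusted over 12 tests. Alternatives were DESeq2 1.42.0 (size factors in edgeR, and the Wald test), limma 3.58.1 voom with quality weights, no filter or 10 counts in every library, limma on log2(FPKM + 1) and log2(FPKM + 0.1) with and without a mean FPKM of 0.5, all 18 libraries in 1 fit, the replicate number as a block, and libraries left out. In simulated data with 200 changed genes among 18444, edgeR recovered 99% of 4-fold and 72% of 2-fold changes for SAH 1d versus sham. Recovery was 91% and 54% for SAH 7d versus SAH 1d, and 92% and 62% for SAH 7d versus sham. False calls were 5, 9 and 7 in that order. The changed genes were drawn only from well counted genes, and 2-fold changes were counted as recovered whatever their sign. No simulated library was made to stand apart, and the data themselves had 4684 genes called at SAH 1d. The recovery therefore does not give the power for genes at low counts or for groups with a library that stands apart.

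The 10 genes and the lists were chosen with earlier results of these data known. All 10 genes are named with their values, and of the other HIF-1 targets the 6 called genes with the smallest adjusted p and the 3 most abundant in sham that did not pass; other called genes of that list were named after their values were seen, and 1 gene that belonged to the list is not reported here. Promoters were taken from RefSeq (GRCr8), whose coordinates are not those of the counted build, and searched with Python 3.11.15. No sequence of the counted build and no protein sequence was used here.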

Additional observations from a re-analysis of the deposited data

Results flagged for a closer look

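With 30 groups of 6 libraries tested (10 genes in 3 groups) at Dixon's 95% critical value of 0.625, 7 held a library far from the others. For a single group, chance gives such a flag about 1 time in 20. The 10 genes were read in the same libraries and all flags fall on 2 of them. The flags are therefore not independent, and that rate does not apply to their number. In SAH 1d-3, Hif1a at 524 CPM and Ldha at 871 CPM were far above the other SAH 1d libraries. SAH 7d-5 was far above the rest of its group in Hif1a at 184 CPM, in Adm at 7.29 CPM, in Hk2 at 101 CPM and in Pfkfb3 at 84.6 CPM. In the same library Bnip3, at 112 CPM, was far below the rest. The 2 libraries are also those with the highest endothelial, macrophage and neutrophil marker sums of their groups. In the mural and red cell sums they were at opposite ends of their groups. Whether the values are linked was not tested.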

How the results depend on the processing

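The direction of Adm, Vegfa, Bnip3, Hk2 and Pfkfb3 at SAH 1d against sham was the same under every alternative run. The number of the 10 genes called was 5 in each fit without 1 library, 4 with the replicate block and 2 with all 18 libraries in 1 fit. Other targets called were 12 to 18 without 1 library and 25 with limma voom. Split into higher and lower, they were 10 and 4 as reported, 10 and 7 with DESeq2, 14 and 11 with voom, 12 and 1 on log2 FPKM (11 and 1 with no filter), 11 and 3 with no filter on counts, 10 and 2 with all 18 libraries, and 9 to 12 and 2 to 10 with libraries left out. Oxygen sensing genes called were 1 to 4 without 1 library, 2 with no filter, 2 with the replicate block, 2 without the pair of libraries that stand apart (SAH 1d-3, SAH 7d-5), and 1 without the high SAH 1d pair (SAH 1d-3, SAH 1d-5), chosen after seeing the data. For SAH 7d versus SAH 1d, the 10 genes gave 1 call with DESeq2, a minimum of 10 counts, each FPKM fit or all 18 libraries in 1 fit, 2 with voom or without the apart pair, and 0 to 1 without 1 library (1 without SAH 7d-4 or SAH 7d-5). Oxygen sensing genes gave 2 calls with DESeq2 or voom, 1 with each FPKM fit or all 18 libraries, 3 without the apart pair, and 0 to 3 without 1 library (3 without SAH 7d-5). Other targets gave 5 calls with DESeq2 or all 18 libraries, 14 with voom, 13 without the apart pair, 1 with no filter, 10 counts, each FPKM fit, the replicate block or without the high SAH 1d pair, and 1 to 6 without 1 library (6 without SAH 7d-5, 1 without any other). Over all genes, SAH 7d versus SAH 1d gave 52 calls higher and 200 lower as reported. These were 367 and 645 with DESeq2, 1175 and 1543 with voom, and 236 and 543 with all 18 libraries in 1 fit. They were 1130 and 1382 without the apart pair, and 587 and 958 without SAH 7d-5. For SAH 7d versus sham, DESeq2 called 2 of the 10 genes, and 406 higher and 53 lower over all genes. The causes were not tested.

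Where a sign turned, the gene or share was not called in that comparison. At SAH 1d versus sham, Pdk1 was 0.044 and 0.046 on log2 FPKM with pseudocounts of 1 and 0.1, 0.016 without the apart pair, and -0.13 to 0.016 without 1 library. Ldha was -0.15 with voom, -0.13 and -0.22 without the 2 pairs, and -0.13 to 0.22 without 1 library. For SAH 7d versus SAH 1d, Hif1a was 0.022 without the high SAH 1d pair and -0.68 to 0.00012 without 1 library, Bnip3 -0.0099 and -0.010 on log2 FPKM, Ankrd37 0.0070 without the apart pair and -0.32 to 0.086 without 1 library, Ldha 0.078 with voom, 0.088 and 0.15 without the pairs and -0.29 to 0.060 without 1 library, Pdk1 -0.0085 to 0.13 and Hk2 -0.062 to 1.12 without 1 library. For SAH 7d versus sham, Hif1a was -0.013 with voom, -0.031 without the apart pair and -0.031 to 0.10 without 1 library, Pdk1 -0.049 with voom and -0.056 to 0.078, Egln3 -0.018 with voom and -0.068 to 0.064, and Ldha -0.11 to 0.00073. Family shares are given in percentage points. The Hk2 share at SAH 1d differed by 1.44 to 2.09 without 1 library and by 1.44 without the apart pair. It was called without sham-1 and not without any other library, where the exact p was each time the smallest that the splits allow. At SAH 7d versus sham the Hk2 share was 1.47 to 5.15 and called only without sham-1, and versus SAH 1d -0.43 to 3.26. Pdk1 at SAH 7d versus sham was -0.056 on CPM, -0.068 without the apart pair and -0.51 to 0.74 without 1 library. Egln3 at SAH 7d versus SAH 1d was -0.17 on CPM, -0.858 without the apart pair and -0.54 to 0.83, at SAH 1d versus sham -0.35 to 1.15, and at SAH 7d versus sham -0.012 to 1.30 without 1 library.

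Deviations of same-numbered libraries from their group means had correlations of -0.32 to 0.29, over 0.1 in 4 of 18 pairs. Libraries with different numbers were not compared, so these values cannot decide whether the numbers pair libraries. The study's methods assign 18 rats at random to 3 groups, and the numbers were taken as names only. With the replicate block Vegfa at SAH 1d was 0.39, with an adjusted p of 0.0518, and the other 4 calls were made. Adm was read at 28 to 61 counts in sham libraries, the fewest of the 5 called genes.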

Other observations

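Receptors for the peptides encoded by Adm and Vegfa were also listed, and all 8 were tested. At SAH 1d 0% of them were called higher and 12.5% lower, against 14.9% and 10.5% of all genes. At SAH 1d Ramp1, a subunit that joins the Calcrl receptor to bind the related peptide CGRP, was lower, with a mean of 18.6 CPM against 34.0 CPM in sham, a log2 fold change of -0.87 ± 0.27 (SE) and an adjusted p of 0.0319. Calcrl was at 0.35 ± 0.19 (SE) with an adjusted p of 0.196, and Ramp2, which makes it an adrenomedullin receptor, was at 0.29 ± 0.11 (SE) with an adjusted p of 0.0696. Flt1 (0.34), Kdr (0.33), Nrp1 (0.17) and Nrp2 (0.44), which bind vascular endothelial growth factors, and Ramp3 (-0.28) did not pass. The median of the 8 was 0.31 on the log2 scale, against 0.0086 for all genes tested. None was called at SAH 7d against SAH 1d or sham by edgeR, with 1 and 0 genes at an unadjusted p under 0.05.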
